A study of Mus musculus with 6 samples.

Results

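The genes described here make, pack, take up and break down the inhibitory transmitter GABA. They are Gad1, Gad2, Slc32a1, Slc6a11, Abat and Aldh5a1, chosen by name from the deposited gene table, in which all 6 were found among 27884 genes. All 6 also passed the filter on low counts, which left 18640 genes for testing. The study profiled the preoptic area, a hypothalamic region that controls body temperature, in female mice 17 to 18 weeks old. Each IP library holds RNA bound to EGFP-tagged ribosomes from NuTRAP::Pnoc-Cre mice, pulled down with an antibody against GFP. Each input library holds the total RNA of the same tissue from the same mice, so that the Cre driver and the tag are shared by every sample and no untagged control was compared. The tag marks the cells in which Pnoc-Cre has acted. There were 3 IP and 3 input libraries, each made from the pooled tissue of 3 animals, and total counts lay between 48204567 and 53056642 per library. Pnoc, the gene of the Cre driver, checks the labels, with 47.7, 43.1 and 41.1 CPM (counts scaled to library size) in the IP libraries against 7.51, 11.0 and 13.2 CPM in the input libraries.

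GABA is made from glutamate by glutamate decarboxylase, which uses pyridoxal phosphate as its cofactor. In mice Gad1 encodes GAD67, found throughout the neuron, and Gad2 encodes GAD65, concentrated at nerve terminals. Slc32a1 encodes VGAT, which loads GABA into synaptic vesicles. Released GABA is taken up by plasma membrane carriers, among them GAT-3, the product of Slc6a11, which in the mouse brain is found mainly in astrocytes. Inside mitochondria of neurons and glia, the transaminase encoded by Abat turns GABA into succinic semialdehyde, and the dehydrogenase encoded by Aldh5a1 turns that into succinate, which enters the citric acid cycle. Many preoptic neurons use GABA.

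Upstream sequences are shown for the pair of genes that rose together in IP (Gad1 and Slc32a1), for Gad2, which was not called, and for Slc6a11, which fell. Each is the 250 bases before the start of the canonical GENCODE transcript on mm39, plus strand, written 5′ to 3′ and read from the reference genome at chr2:70391353-70391602, chr2:158452355-158452604, chr2:22511612-22511861 and chr6:114107950-114108199. Capitals mark TAATT, a core recognised by homeodomain proteins such as the Dlx factors of GABA neurons, and CCAAT, a common promoter box, each searched on both strands.
Gad1: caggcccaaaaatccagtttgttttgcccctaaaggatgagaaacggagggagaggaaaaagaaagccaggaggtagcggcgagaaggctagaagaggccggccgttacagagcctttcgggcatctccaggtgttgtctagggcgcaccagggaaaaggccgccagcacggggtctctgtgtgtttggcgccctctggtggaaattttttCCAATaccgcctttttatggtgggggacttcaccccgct
Slc32a1: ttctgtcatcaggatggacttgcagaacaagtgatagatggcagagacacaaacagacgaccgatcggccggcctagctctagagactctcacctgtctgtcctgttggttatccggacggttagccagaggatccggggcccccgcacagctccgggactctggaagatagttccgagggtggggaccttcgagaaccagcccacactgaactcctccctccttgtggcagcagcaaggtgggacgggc
Gad2: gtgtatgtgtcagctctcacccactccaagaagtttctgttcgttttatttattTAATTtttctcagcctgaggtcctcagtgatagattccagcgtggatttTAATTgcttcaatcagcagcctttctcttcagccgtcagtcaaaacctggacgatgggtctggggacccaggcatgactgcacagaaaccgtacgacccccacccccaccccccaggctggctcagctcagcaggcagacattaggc
Slc6a11: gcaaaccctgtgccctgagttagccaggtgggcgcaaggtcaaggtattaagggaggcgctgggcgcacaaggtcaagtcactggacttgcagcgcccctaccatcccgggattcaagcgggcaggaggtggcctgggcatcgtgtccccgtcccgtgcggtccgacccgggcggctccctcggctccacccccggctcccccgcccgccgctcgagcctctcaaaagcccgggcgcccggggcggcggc
The Gad2 window held 2 matches to TAATT, at 196 and 147 bases before the start, and the windows of Gad1, Slc32a1 and Slc6a11 held 0. Of the members not printed, Aldh5a1 held 1 match to TAATT, at 210 bases, and 1 to CCAAT, at 60 bases, and Abat held 0 of either. The Gad1 window held 1 match to CCAAT, 39 bases before the start. Of 21770 windows of the same length before protein-coding genes, 25.5% held TAATT and 36.5% held CCAAT. Neither of 2 further motifs, TATAAA (in 11.9% of windows) and CACGTG (in 6.26%), matched in these 4. GC content was 71.2% for Slc6a11, 58.8% for Slc32a1, 55.6% for Gad1 and 51.2% for Gad2, against a median of 53.2% over all windows. The match counts are descriptions of letters, and other transcript starts of these genes were not searched. The Gad1 window lies inside the annotated gene, which begins at 70383416, before the start of its canonical transcript.

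Gad1 and Slc32a1 were about 1.9-fold and 2-fold higher in IP, Gad2 was not called, and Slc6a11 was about 6-fold lower. Aldh5a1 passed the threshold narrowly as higher, and Abat lay below input without passing. By the quasi-likelihood test of edgeR, with p-values adjusted by Benjamini and Hochberg's method over all genes, 3 of the 6 rose (12.9% of all genes tested were called higher) and 1 fell (17.1% of all genes were called lower). Together 4 of 6 were called, against 30.0% of all genes. DESeq2 made the same calls among the 6, against 12.8% higher and 16.7% lower of all genes. The block by tissue pool added Abat as lower, against 15.2% higher and 19.4% lower of all genes, and a test against a 1.5-fold change called only Slc6a11, against 2.4% higher and 8.88% lower. The median log2 fold change of the 6 was 0.30, against -0.07 over all genes tested. Scaling by library totals alone moved that last median by -0.105, and the values of the 6 genes with it. The IP and input libraries did not overlap in CPM for 5 of the 6, where 47.7% of all genes did not overlap. Each tissue pool supplied both kinds of library, so cell numbers in the tissue do not differ between IP and input. The contrast mixes which cells carry the tag, RNA carried over from untagged cells, and ribosome-bound against total RNA. The share of each was not tested, for single genes or for ratios between genes within a library.

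Of the enzymes of GABA synthesis, Gad1 was called higher and Gad2 was not called. Gad1 (ENSMUSG00000070880, chromosome 2, 70383416 to 70432358, plus strand, mm39) had 1407, 989.9 and 950.0 CPM in IP replicates 1, 2 and 3, against 562, 639 and 570.2 CPM in input. Every IP library lay above every input library, and IP replicate 1 stood above the other two. Means were 1116 ± 253 CPM in IP and 590.4 ± 42.0 CPM in input (SD, n = 3 each). Gad1 was thus 1.89-fold higher, at a log2 fold change of 0.92 ± 0.17 (SE, adjusted p = 0.00492, edgeR). Without both libraries of replicate 3 the value was 0.999 and did not pass (adjusted p = 0.0712, edgeR), a setting in which only 133 genes of the whole table were called higher. Gad1os, the lncRNA on the opposite strand that overlaps Gad1 over 10286 bases, had at most 25 counts in any library, against at least 29108 for Gad1.

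Gad2 (ENSMUSG00000026787, chromosome 2, 22512217 to 22583886, plus strand) had 727, 557 and 643 CPM in IP, against 506, 566 and 594 CPM in input. IP replicate 2 lay below input replicates 2 and 3, so that the groups overlapped. The log2 fold change was 0.21 ± 0.13 (SE, adjusted p = 0.272, edgeR). Over 19 alternative settings it lay between 0.05 and 0.45 and never passed, the lowest adjusted p being 0.0531 after correction for transcript length and GC content with the tissue pool as a block. Gad2 was thus the member of the neuronal trio with the smallest value in every setting that kept all 6 libraries, and its difference from Gad1 is tested below as a ratio within libraries.

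The vesicular transporter rose by about as much as Gad1, though by less after length and GC correction (log2 0.72, against 1.05 for Gad1). Slc32a1 (ENSMUSG00000037771, chromosome 2, 158452687 to 158457668, plus strand) had 311, 241 and 199 CPM in IP, against 114, 131 and 138 CPM in input. The groups did not overlap, and IP replicate 1 was again the highest library. Slc32a1 was 1.96-fold higher, at a log2 fold change of 0.97 ± 0.18 (SE, adjusted p = 0.00518, edgeR). It stayed called without any one library, between 0.787 and 1.115. Gm14204, an antisense lncRNA that overlaps it over 220 bases, averaged 39.8 ± 7.96 CPM in IP and 21.3 ± 4.59 CPM in input (SD, n = 3 each), a log2 fold change of 0.90 ± 0.21 (SE) whose call was lost without IP replicate 3 (adjusted p = 0.0502, edgeR). Whether counting used strand is not given in the sources used here, so reads in the overlap may be shared.

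**Figure D1:**
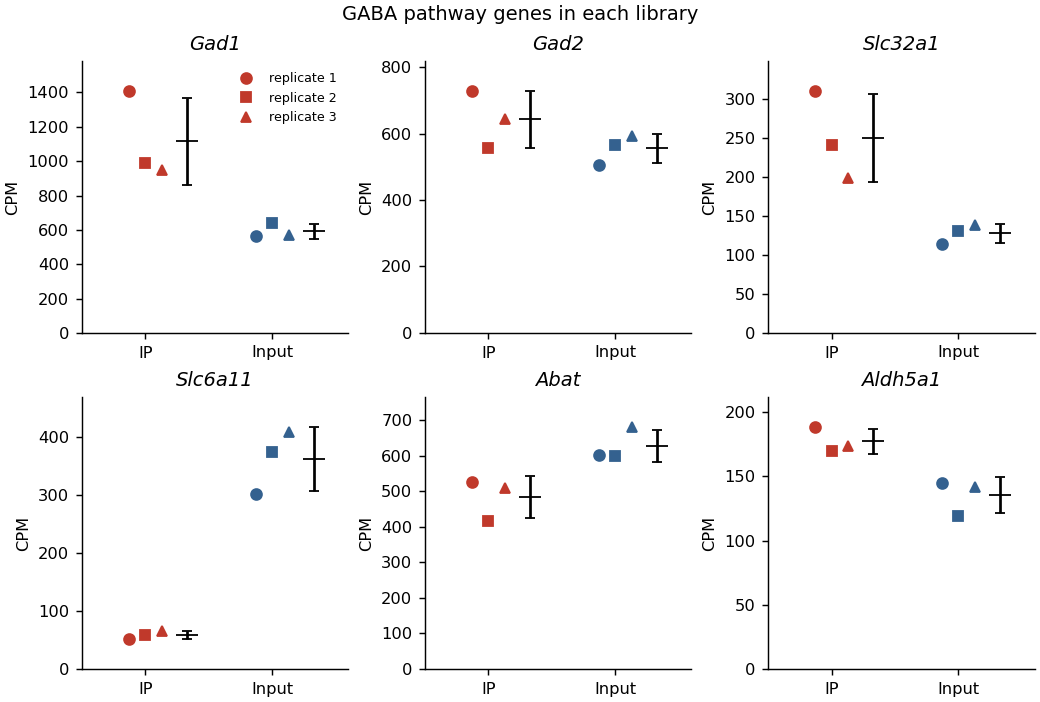
CPM of the 6 genes in each of 3 IP (red) and 3 input (blue) libraries, on linear axes from 0; symbols mark the replicate and black bars the mean ± SD. Gad1 and Slc32a1 sit higher in all IP libraries, Gad2 overlaps, and Slc6a11 lies between 51.7 and 65.5 CPM in IP against 302 to 409 CPM in input.

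Slc6a11 fell in IP by more than any other member. It (ENSMUSG00000030307, chromosome 6, 114108202 to 114226913, plus strand) had 51.7, 57.9 and 65.5 CPM in IP, against 302, 374 and 409 CPM in input. The highest IP library stood far below the lowest input library. IP held 16.1% of the input level, a log2 fold change of -2.63 ± 0.16 (SE, adjusted p = 4.39e-05, edgeR). All 19 alternative settings kept the call, between -2.74 and -2.50. The 3 pools gave -2.55, -2.69 and -2.64, with an SD of 0.08 that was the smallest of the 6 genes.

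The breakdown enzymes lay near input, on either side of it. Abat (ENSMUSG00000057880, chromosome 16, 8331293 to 8439432, plus strand) had 527, 415 and 509 CPM in IP, against 603, 599 and 679 CPM in input. All IP libraries lay below all input libraries, yet the log2 fold change of -0.37 ± 0.13 (SE) did not pass (adjusted p = 0.0602, edgeR). With the tissue pool as a block it passed (-0.38, adjusted p = 0.0465, edgeR), and after length and GC correction it was smaller, at -0.22 (adjusted p = 0.271, edgeR). Aldh5a1 (ENSMUSG00000035936, chromosome 13, 25091562 to 25121644, minus strand) had 188, 169.9 and 174 CPM in IP, against 145, 119 and 142 CPM in input. The groups did not overlap, and the log2 fold change of 0.39 ± 0.13 (SE) passed with an adjusted p of 0.0484 in edgeR. That call was kept in only 1 of the 6 fits that left out a library, the one without input replicate 1; without IP replicate 1, 2 or 3 or input replicate 2 or 3 the values lay between 0.35 and 0.47, with adjusted p between 0.0726 and 0.153 in edgeR. Of the consecutive enzymes of the pathway, one therefore lay below input and the other above it.

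**Figure D2:**
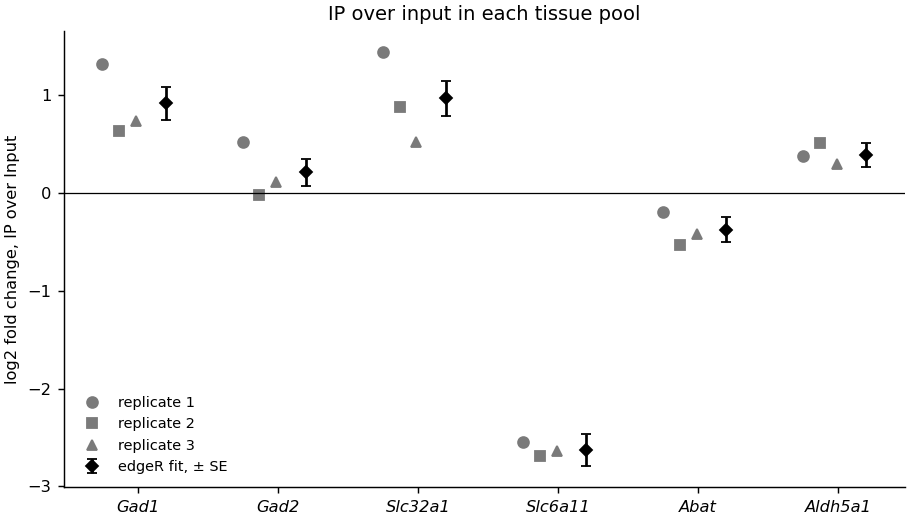
Log2 fold change of IP over input for each gene in each tissue pool (grey symbols) and in the edgeR fit (black diamonds, ± SE). For Gad1, Gad2 and Slc32a1 pool 1 lies highest, at 1.32, 0.52 and 1.44, whereas the 3 pools of Slc6a11 lie between -2.69 and -2.55.

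The pools differed most for the neuronal genes. Pool 1 gave log2 differences of 1.32 for Gad1, 0.52 for Gad2 and 1.44 for Slc32a1. Pool 2 gave 0.63, -0.02 and 0.88 for the same genes, and pool 3 gave 0.74, 0.11 and 0.52. Among the IP libraries, replicate 1 thus carried the highest CPM of Gad1, Gad2, Slc32a1, Abat and Aldh5a1 and the lowest of Slc6a11. Summed CPM of 9 transcription factor genes of GABA neurons was also highest in IP replicate 1, at 657, against 382 and 488 in IP replicates 2 and 3. It was 442, 284 and 351 in input replicates 1, 2 and 3. Meis2, in that list, had 249, 111 and 153 CPM in those input libraries. Of glutamatergic markers, Slc17a7 had 363, 103 and 44.0 CPM there and Neurod6 58.6, 0.72 and 1.57 CPM. Slc17a6 had 95.9, 285 and 197 CPM, lowest in input replicate 1. Whether the tissue of pool 1 differed in make-up was not tested. Summed CPM of 13 pan-neuronal markers was 13490 in IP replicate 1, the lowest of the IP libraries, as was that of 13 astrocyte markers, at 396. Without both libraries of replicate 1 the log2 fold change was 0.683 for Gad1, 0.707 for Slc32a1 and 0.05 for Gad2, and Gad1 and Slc32a1 stayed called (adjusted p = 0.00780 and 0.0108, edgeR). Slc6a11 stood at -2.67 and Abat at -0.47 in that fit.

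Ratios of 2 members within a library do not depend on how libraries are scaled, and all 15 pairs were compared. The ratio of Gad1 to Gad2 counts, on the log2 scale, was 0.95, 0.83 and 0.56 in IP replicates 1, 2 and 3, against 0.15, 0.18 and -0.06 in input. All IP ratios lay above all input ratios, by 0.69 ± 0.14 (SE), a 1.62-fold shift toward Gad1. The ratio of Gad1 to Slc32a1 was 2.18, 2.04 and 2.26 in IP and 2.30, 2.29 and 2.04 in input. These overlapped, with a difference of -0.05 ± 0.11 (SE). Gad2 over Slc32a1 differed by -0.74 ± 0.16 (SE), with the groups apart. These ratios carry no length and GC correction. With that correction the log2 fold changes were 1.05 for Gad1, 0.72 for Slc32a1 and 0.44 for Gad2, so that Slc32a1 then lay between the other genes.

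Neuronal and glial members were then set against each other. Gad1 over Slc6a11 shifted by 3.52 ± 0.30 (SE) on the log2 scale, an 11.5-fold change. Slc32a1 over Slc6a11 shifted by 3.57 ± 0.29 (SE), or 11.9-fold, and Gad2 over Slc6a11 by 2.83 ± 0.19 (SE), or 7.12-fold. Against Abat the shifts were 1.28 ± 0.18 for Gad1, 1.33 ± 0.20 for Slc32a1 and 0.59 ± 0.06 for Gad2 (SE). Against Aldh5a1 they were 0.51 ± 0.20 for Gad1, 0.56 ± 0.21 for Slc32a1 and -0.19 ± 0.15 for Gad2 (SE), the last with overlapping groups. Within the trio of uptake and breakdown genes, Slc6a11 over Abat differed by -2.25 ± 0.18 and Abat over Aldh5a1 by -0.77 ± 0.11 (SE). Of the 15 ratios 13 did not overlap between IP and input, and each of these had p = 0.10 in an exact two-sided permutation test of 3 against 3 libraries, the smallest that design can give, or 0.115 after adjustment over the 15. That test does not use the pairing by tissue pool. The 15 ratios reuse the same 6 genes, 5 of which did not overlap on their own, so they are not independent. The share of non-overlapping ratios among other gene pairs was not computed. Within pools 1, 2 and 3 the difference was 0.80, 0.65 and 0.62 for Gad1 over Gad2 and 0.72, 0.51 and 0.53 for Gad2 over Abat. Grouping Slc6a11, Abat and Aldh5a1 as glial is a simplification, since the last pair are also known from neurons, and they did not move as one group.

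**Figure D3:**
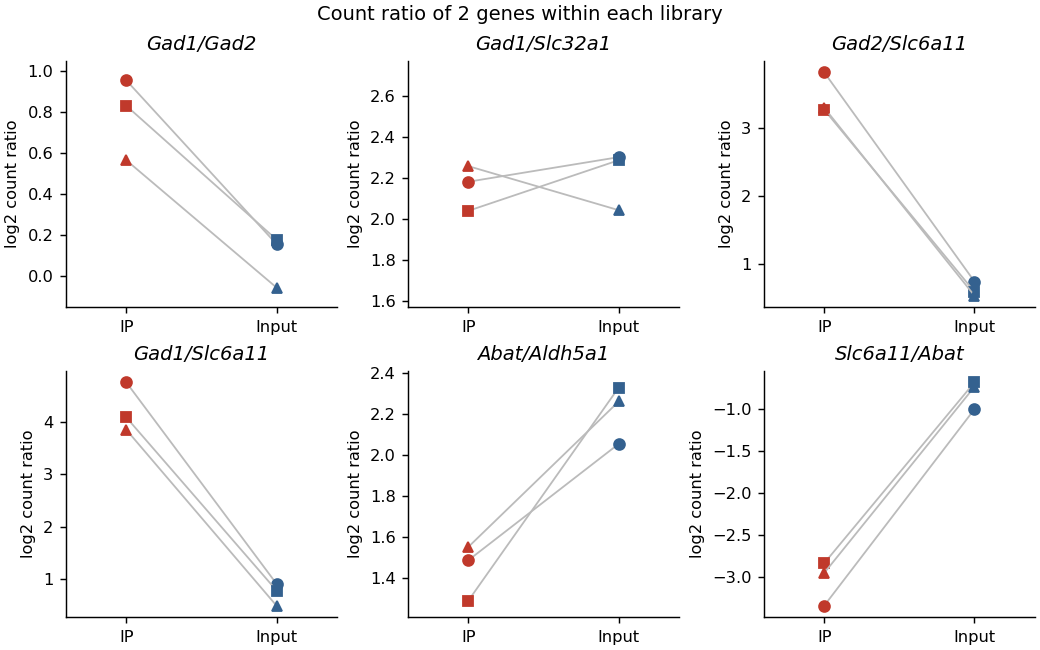
Log2 ratio of the counts of 2 genes within each IP (red) and input (blue) library, with grey lines joining the libraries of a tissue pool; vertical scales differ between panels. Gad1/Gad2 is higher in all IP libraries, at 0.56 to 0.95 against -0.06 to 0.18 in input, and Gad1/Slc32a1 overlaps.

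Levels of different genes can be compared only per length, for which the authors' deposited FPKM was used (fragments scaled to gene length and to library size). In all 3 IP libraries the order was Gad1, Gad2, Slc32a1, Abat, Aldh5a1 and Slc6a11. Mean FPKM in IP was 146 ± 32.1 for Gad1, 109 ± 13.9 for Gad2, 89.3 ± 19.5 for Slc32a1, 62.4 ± 7.57 for Abat, 31.4 ± 1.51 for Aldh5a1 and 11.6 ± 1.44 for Slc6a11 (SD, n = 3). Gad2 and Slc32a1 overlapped in IP, at 95.0 to 123 against 71.4 to 110.1 FPKM, and the other neighbours in that order did not. In input the order by mean FPKM was Gad2 at 92.7 ± 8.41, Abat at 79.3 ± 6.24, Gad1 at 75.8 ± 5.82, Slc6a11 at 70.3 ± 11.3, Slc32a1 at 44.9 ± 4.79 and Aldh5a1 at 23.5 ± 2.34 (SD, n = 3). The first 4 of these overlapped with their neighbours, and Slc32a1 and Aldh5a1 each stood apart. Slc6a11 was thus last in IP and above Slc32a1 and Aldh5a1 in input.

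Parts of this order rest on the length used. The authors' gene length is 7639 bases for Gad1 and 5876 for Gad2, whereas the canonical transcripts are 4152 and 6099 bases long. With the authors' length, Gad1 stood above Gad2 in all 3 IP libraries and below it in all 3 input libraries, with mean log2 ratios of 0.40 in IP and -0.29 in input. With the canonical length Gad1 was first in all 6 libraries, and the mean log2 ratios were 1.34 in IP and 0.64 in input. With the canonical length Slc32a1 and Abat also overlapped in IP, at 66.7 to 104.5 and 75.5 to 97.0, with Abat higher by mean (88.7 against 83.8). In input the order by mean was then Gad1, Abat, Gad2, Slc6a11, Slc32a1 and Aldh5a1. The shift of a ratio between IP and input is the same with either length.

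Beside marker genes, Slc6a11 lay among the astrocyte genes. All 13 astrocyte markers tested fell, where 17.1% of all genes did. Their log2 fold changes lay between -3.53 and -1.73 with a median of -2.65, and Slc6a11 stood at -2.63. Other non-neuronal lists covered that value too. Oligodendrocyte markers ranged from -3.44 to -2.37 and precursor markers from -3.58 to -2.40. Microglial markers ranged from -4.17 to -2.35, and endothelial and mural markers from -3.04 to -1.86. Aqp4, a water channel gene of astrocytes, stood at -3.53 ± 0.16, and the bicarbonate carrier Slc4a4 at -2.56 ± 0.13 (SE). Summed CPM of the astrocyte markers was 396 to 477 in IP against 1723 to 2462 in input, and no marker was at 0 counts. The ratio of Slc6a11 to that sum differed by -0.33 ± 0.10 (SE, log2), with the groups apart (p = 0.10, exact two-sided permutation test, 0.12 adjusted over 12 ratios to marker sums). Atp1b2, the marker with the smallest fall (-1.73), averaged 192 CPM in IP and 639 CPM in input, the most of the 13. The sum therefore leans on Atp1b2, whereas Slc6a11 lay near the median of the single markers. Abat over the same sum was 1.92 ± 0.20 and Aldh5a1 2.69 ± 0.26 (SE) higher in IP, with the groups apart.

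Among 13 pan-neuronal markers, whose median log2 fold change was 0.56, 6 rose and 1 fell, where 12.9% of all genes rose and 17.1% fell. Summed CPM of the markers was 13490 to 15610 in IP against 9661 to 11330 in input. Syp, a synaptic vesicle protein gene, rose by 0.84 ± 0.11 and Tubb3, a neuronal tubulin gene, by 0.94 ± 0.17 (SE). Syn1, which encodes a vesicle-associated phosphoprotein, fell by 0.41 ± 0.13 (SE), a call lost with the tissue pool as a block (adjusted p = 0.0510, edgeR) and kept, of the fits without 1 library, only without input replicate 1. Only 3 of these markers rose without IP replicate 2, IP replicate 3 or input replicate 3. Relative to the summed pan-neuronal counts, Gad1 was 0.44 ± 0.22 and Slc32a1 0.49 ± 0.24 higher in IP (SE, log2). The groups did not overlap, yet pools 1, 2 and 3 gave 0.92, 0.17 and 0.23 for Gad1. For Slc32a1 the same pools gave 1.04, 0.42 and 0.02. Gad2 over the same sum differed by -0.25 ± 0.20 and Aldh5a1 by -0.06 ± 0.19 (SE), with overlapping groups. Abat over that sum differed by -0.84 ± 0.21 and Slc6a11 by -3.08 ± 0.19 (SE), with the groups apart. The 4 ratios that did not overlap, of Gad1, Slc32a1, Abat and Slc6a11, each had p = 0.10 in the exact two-sided permutation test (0.12 adjusted).

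**Figure D4:**
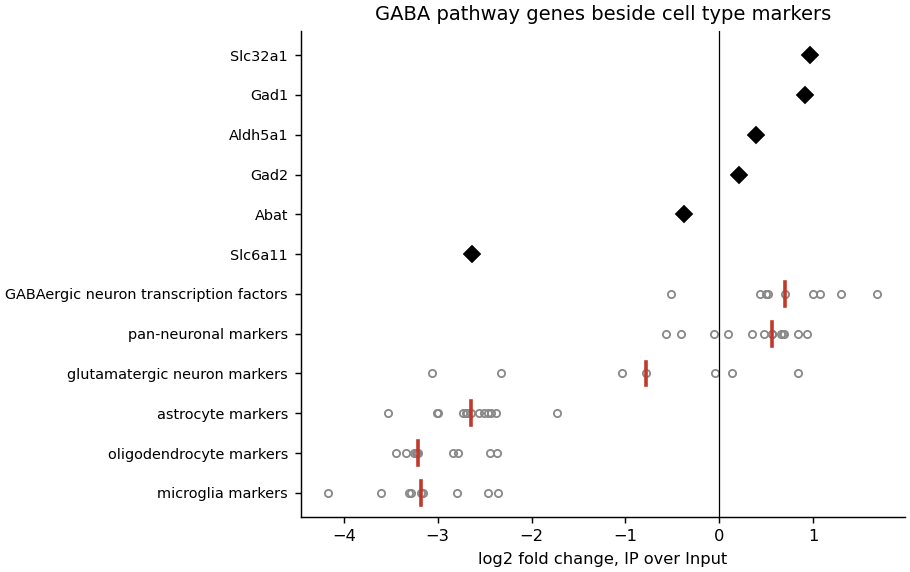
Log2 fold change of IP over input for the 6 genes (diamonds) above the single genes of 6 marker lists (open circles, with a red bar at each list's median). The glutamatergic bar is the value of Slc17a7, for which IP lay below input in pool 1 alone. Slc6a11 at -2.63 lies beside the astrocyte median of -2.65 and within the ranges of the oligodendrocyte and microglial markers. Aldh5a1 and Gad2, at 0.39 and 0.21, lie below the pan-neuronal median of 0.56.

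Of 9 transcription factor genes of GABA neurons 4 rose and 0 fell in edgeR (0 also in DESeq2 and at an unadjusted p under 0.05), around a median of 0.70 (log2). Isl1 rose by 1.07 ± 0.13 and Dlx1, which overlaps an antisense gene, by 1.68 ± 0.22 (SE). With the block 1 of the 9 fell. Of 7 glutamatergic markers, with a median of -0.78, 1 rose, the hypothalamic factor Otp at 0.84 ± 0.19 (SE). Foxb1 fell, at -2.32 ± 0.62 (SE), and was scarce, with means of 0.56 CPM in IP and 2.82 CPM in input. Slc17a6 and Slc17a7, at 0.14 and -0.78, were not called in the fit without a block. The median of the list is the value of Slc17a7, which had 43.3, 190 and 63.5 CPM in IP replicates 1, 2 and 3. In input it had 363, 103 and 44.0 CPM, so that IP lay below input in pool 1 alone. For Neurod6, too, input replicate 1 was far above the other input libraries. Under the block 2 of the 7 were lower. Over all genes tested, 12.9% were called higher and 17.1% lower without the block, and 15.2% and 19.4% with it. Otp lost its call without IP replicate 3 (0.765), and Foxb1 without IP replicate 1 or 3 or input replicate 2 or 3 (-1.93 to -2.32). All 10 oligodendrocyte, 6 precursor, 9 microglial and 8 endothelial and mural markers fell, at medians of -3.21, -2.92, -3.18 and -2.48, as did 3 of 5 leptomeningeal and 3 of 7 ependymal and choroid markers. The ependymal and choroid count was 5 with the block and 1 without input replicate 3 or any one IP library.

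Among the plasma membrane carriers of GABA, taurine and creatine reported here, only Slc6a11 fell of 4 tested. In edgeR 0 rose (0 also in DESeq2 and at an unadjusted p under 0.05). The shares over all genes were 17.1% lower and 12.9% higher, and 19.4% and 15.2% with the tissue pool as a block. Slc6a6, a taurine carrier gene, stood at -0.48 (adjusted p = 0.0639, edgeR). It was called lower with the tissue pool as a block (-0.47, adjusted p = 0.0374, edgeR), so that 2 carriers were then lower, and also without input replicate 2 (-0.53, adjusted p = 0.0487, edgeR). Slc6a13, the gene of GAT-2, was scarce, with means of 0.47 ± 0.37 CPM in IP and 1.51 ± 0.99 CPM in input (SD, n = 3 each). Slc6a12 did not pass the low-count filter.

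Genes that supply glutamate and glutamine split by direction, with 3 of 12 higher and 6 lower in IP and a median log2 fold change of -0.32. Over all genes tested, 12.9% were higher and 17.1% lower. Slc1a3, the astrocytic glutamate carrier GLAST, averaged 31.8 ± 6.61 CPM in IP and 372 ± 65.1 CPM in input (SD, n = 3 each), a log2 fold change of -3.55 ± 0.21 (SE). Slc38a3, a glutamine carrier of astrocytes, stood at -3.49 ± 0.19, the glutamate carrier Slc1a2 at -2.37 ± 0.28 and Glul, which makes glutamine from glutamate in astrocytes, at -2.01 ± 0.20 (SE). Glud1, glutamate dehydrogenase, fell by 0.72 ± 0.15 (SE), with the call lost without input replicate 3 (adjusted p = 0.0503, edgeR). On the other side, Slc38a1, a glutamine carrier of neurons, averaged 323 ± 31.9 CPM in IP and 182 ± 4.51 CPM in input (SD, n = 3 each), a rise of 0.83 ± 0.12 (SE). Got1, an aspartate aminotransferase, rose by 0.47 ± 0.11 and Gls2, a glutaminase, by 0.61 ± 0.15 (SE). Got1 lost its call without IP replicate 2 or input replicate 3 (0.40 and 0.51), and Gls2 without IP replicate 2 or 3 or input replicate 3 (0.54 to 0.61), which left 1 gene higher without IP replicate 2 or input replicate 3. With the block 5 genes were higher, Slc1a1 and Got2 being added (0.60 and 0.56, adjusted p = 0.00741 and 0.0131, edgeR), and the same pair was added without input replicate 2. Under the block 15.2% of all genes were higher and 19.4% lower.

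Among the genes reported for the supply of the cofactor pyridoxal phosphate, 1 of 3 was higher and 0 lower in edgeR (1 in DESeq2 and 1 at an unadjusted p under 0.05, Pdxk). The edgeR shares over all genes were 12.9% higher and 17.1% lower, and 15.2% and 19.4% with the block. Pdxp, the phosphatase that breaks pyridoxal phosphate down, averaged 281 ± 30.1 CPM in IP and 103 ± 14.5 CPM in input (SD, n = 3 each). Its log2 fold change was 1.44 ± 0.15 (SE, adjusted p = 0.000439, edgeR). The gene of the kinase, Pdxk, stood at -0.91 ± 0.33 (SE, adjusted p = 0.0734, edgeR), and was called lower with the block (-0.90, adjusted p = 0.00545, edgeR), without IP replicate 1 (-1.23) and without input replicate 2 (-1.10).

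Downstream of GABA breakdown 2 of 8 genes rose and 2 fell, around a median of 0.22 (log2). Over all genes tested, 12.9% rose and 17.1% fell, and counts this small were not tested against those shares. Adhfe1, an enzyme of gamma-hydroxybutyrate breakdown, averaged 2.97 ± 0.69 CPM in IP and 22.1 ± 2.19 CPM in input (SD, n = 3 each), a log2 fold change of -2.90 ± 0.23 (SE). Akr1a1, an aldehyde reductase, rose by 0.90 ± 0.15 (SE). The subunits of succinyl-CoA ligase parted. Suclg1, the subunit common to the ATP and GTP forms, rose by 0.80 ± 0.15, whereas Suclg2, the subunit of the GTP form, stood at -2.39 ± 0.27 (SE) with 5.53 ± 1.67 CPM in IP and 29.0 ± 6.46 CPM in input (SD, n = 3 each). Sucla2, the subunit of the ATP form, stood at 0.29 ± 0.17 (SE, adjusted p = 0.222, edgeR).

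A route that makes GABA from putrescine, known from glia, had 0 genes higher in edgeR and in DESeq2 (1 at an unadjusted p under 0.05, the ornithine decarboxylase gene Odc1) and 3 of 5 lower. Aldh1a1, an aldehyde dehydrogenase, averaged 17.1 ± 5.22 CPM in IP and 109 ± 52.9 CPM in input (SD, n = 3 each), at -2.66 ± 0.39 (SE). Maob, monoamine oxidase B, stood at -1.07 ± 0.21 (SE). Aldh9a1 fell by 0.49 ± 0.15 (SE), a call kept of the fits without 1 library only without input replicate 1. Of 6 genes tied to the handling of GAD65 and VGAT at vesicles, 3 rose and 0 fell in edgeR (0 also in DESeq2 and at an unadjusted p under 0.05), the vesicle glycoprotein genes Sv2a and Sv2c by 0.68 ± 0.12 and 0.57 ± 0.14 and the chaperone gene Dnajc5 by 0.40 ± 0.10 (SE), with a median of 0.40. Only 1 of the 6, Sv2a, stayed called without input replicate 3 or any one IP library. The median of these 6 genes lay below the pan-neuronal median of 0.56. For these lists, as for the others, the edgeR shares over all genes were 12.9% higher and 17.1% lower.

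**Figure D5:**
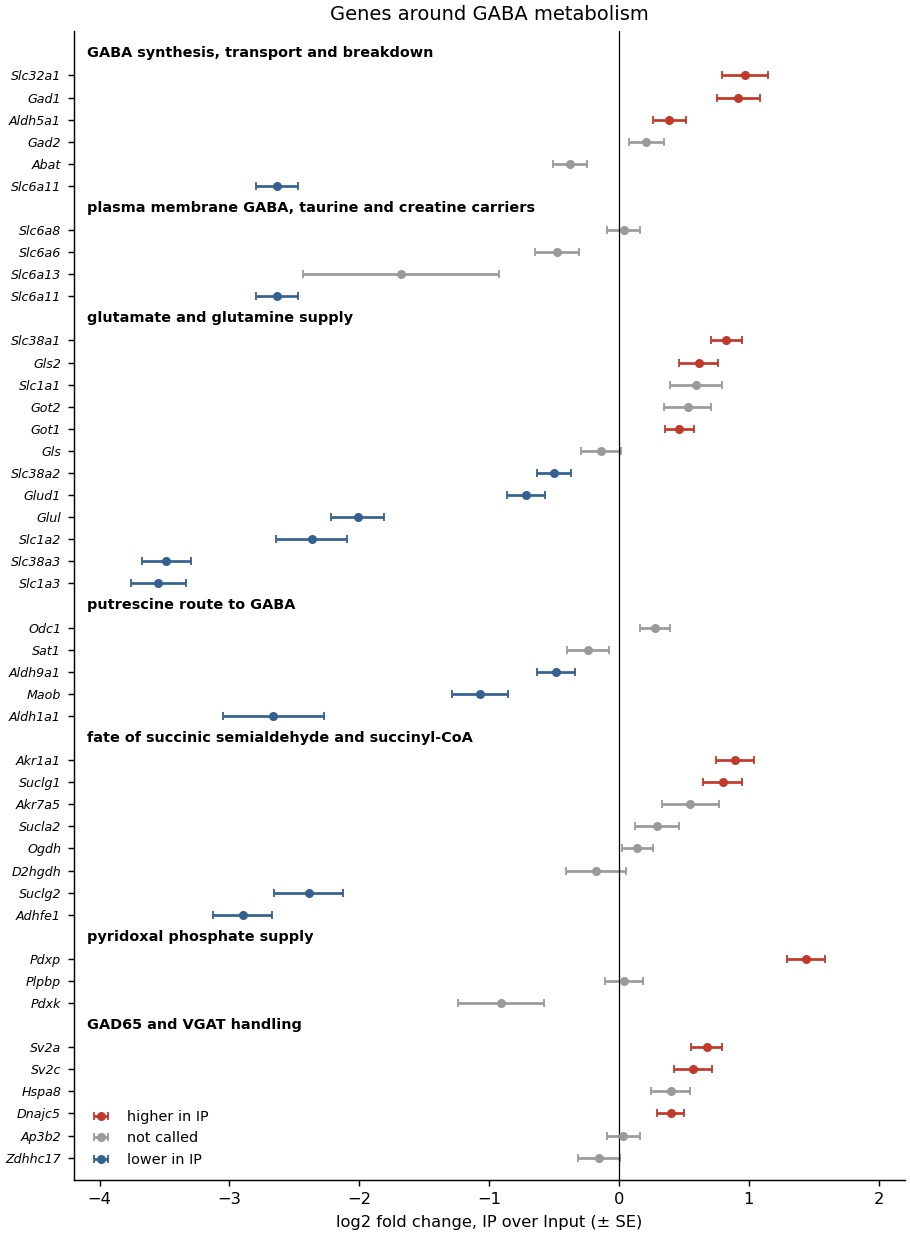
Log2 fold change of IP over input (± SE) for the 6 genes and for 6 lists of genes around GABA metabolism, coloured by the call in edgeR. In most lists genes lie on either side of 0, from Pdxp at 1.44 to Slc1a3 at -3.55.

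Genes with the most similar pattern were found by the root mean square difference of centred log2 CPM over the 6 libraries, among 10113 other protein-coding genes. Nearest to Gad1 were Vstm2l (0.05), Grwd1 (0.10) and Asb4 (0.12), and nearest to Slc32a1 were Vstm2l (0.08), Tceal3 (0.09) and Tceal6 (0.10). Mean CPM of Vstm2l was 213 in IP and 110.4 in input, a log2 fold change of 0.95 ± 0.16 (SE). Asb4 lost its call without IP replicate 1 (0.59) or input replicate 3 (0.83). Nearest to Gad2 were Commd6 (0.04), Galnt2 (0.04) and Nudt16l1 (0.05), of which 0 were called. Nearest to Slc6a11 were Sorbs3 (0.09), Itgb5 (0.10) and Hadh (0.10), all lower in IP, at -2.83, -2.75 and -2.62. Nearest to Abat were Ccnk (0.05), Ccdc90b (0.06) and Zfp9 (0.06), and nearest to Aldh5a1 were Magee1 (0.03), Dhx35 (0.03) and Anks3 (0.04).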

How the data were processed

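Gene tables came from 3 IP and 3 input libraries, paired-end reads of 75 bases from poly(A)-selected RNA. The submitters' processing notes name HISAT2, featureCounts, DESeq2 and the mm39 genome; versions, annotation and strand setting are not given in the sources used here. The deposited read counts are raw whole numbers per gene. FPKM and a normalized signal per library are also deposited, and FPKM served for levels between genes. Deposited log2 ratios and p-values of the authors' own comparison were not used.

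Counts were tested with edgeR 4.0.16 in R 4.3.3 (glmQLFit, glmQLFTest, TMM, filterByExpr, group as the factor, two-sided, Benjamini-Hochberg over 18640 genes, threshold 0.05). CPM uses TMM-scaled library sizes, and the SE is the log2 fold change divided by the square root of F. Log2 ratios used counts plus 0.5 and exact permutation tests (scipy 1.17.1). Depth was alike between libraries. Reads carry no molecular identifiers. The main fit treats IP and input libraries as unpaired, although same-numbered libraries share a pool of 3 animals. Its p-values therefore rest on the spread between libraries within each group and do not use the pairing.

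By the series' design text, an IP and an input library that share a number were made from 1 tissue pool, and are paired. Deviations from group means correlated at 0.35, 0.20 and 0.16 between same-numbered libraries and between -0.31 and 0.16 otherwise. The block by replicate was an alternative. The genes and lists were chosen with earlier results of these data known. Named genes are the 6, Pnoc, the 2 smallest adjusted p per list and direction, and the 3 genes nearest each member. Slc6a6, Slc6a13, Glul, Gls2, Glud1, Slc1a1, Slc1a2, Got2, Aldh9a1, Odc1, Sucla2, Pdxk, Dnajc5, Gm14204, Atp1b2, Meis2, Slc17a6, Slc17a7 and Neurod6 were named outside that rule, after their values were seen. Some genes of the lists are not reported here, and list counts leave them out. Further alternatives: upper-quartile and RLE factors, DESeq2 1.42.0, library totals alone, no filter, a filter of 1 CPM in all libraries of a group, a length and GC correction (splines with 4 degrees of freedom on GENCODE M39 canonical transcripts, for 27576 of 27884 identifiers), a test against a 1.5-fold change, and leaving out each library or pool. Ratios to marker sums and the canonical length were added after seeing the data.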

Additional observations from a re-analysis of the deposited data

How the results depend on the processing

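Slc6a11 kept its call in all 19 alternatives, and Gad2 was uncalled in all 19. Gad1 (0.92) and Slc32a1 (0.97) did not pass against a 1.5-fold change (adjusted p = 0.0779 and 0.0649, edgeR), and Gad1 did not pass without both libraries of replicate 3 (0.999; 0.683 and 1.093 without those of replicate 1 and 2, which passed). Abat passed with library totals alone (-0.48) and with the replicate block (-0.38), and not with length and GC correction, alone or with the block (-0.22 in each). Aldh5a1 did not pass with upper-quartile factors (0.38), library totals alone (0.28), no low-count filter (0.40), against a 1.5-fold change (0.39), without both libraries of replicate 1, 2 or 3 (0.40, 0.37 and 0.44), or in 5 of the 6 fits without 1 library (all 6 between 0.35 and 0.47). The block changed no other call of the 6. Over all genes the block gave 2838 higher and 3617 lower. The genes higher in IP numbered 2400 (448 against a 1.5-fold change; 1508 with replicate 2 and 133 with replicate 3 left out in both groups) and the genes lower in IP 3191 (1656, 2095 and 742 in the same order). Without 1 library the counts lay between 1417 and 2630 higher and between 2035 and 3080 lower. Nudt16l1 (0.13) turned to -0.14 and -0.15 after length and GC correction, alone and with the block, and to -0.046 without both libraries of replicate 1 (0.293 without those of replicate 2). The log2 ratio Gad1/Slc32a1 (-0.05) turned to 0.009 without IP replicate 2 (lowest -0.134), and the log2 ratio Aldh5a1/pan-neuronal markers (-0.06) to at most 0.034 without IP replicate 2 or input replicate 1 or 3 (lowest -0.215). The level of Gad1 over Gad2 in input turned from -0.29 to 0.64 with canonical lengths, because the lengths differ. The cause of the other changes was not tested; fits without a library hold fewer samples. Each of the 6 genes had at least 2424 counts in every library; an effect of depth on their calls was not tested.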
